A study of Homo sapiens with 4 samples.

Results

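Immediate early and DNA damage genes are described here in RNA recovered on streptavidin from DU-145 cells. DU-145 is a human prostate cancer line that grows without androgen. The set holds 32 genes of 25688 in the tables, of which 23 are immediate early genes and 9 are p53 targets or DNA damage genes, taken by symbol from a fixed list of names. In 2 biotin libraries the cells had received miR-26a duplexes carrying biotin at the 3′ end, mixed from a form with thiouridine at nucleotide 7 and a form with thiouridine at nucleotide 17, at 60 nM. In 2 control libraries they had received an untagged miR-26a duplex at 60 nM. Both groups thus carried transfected miR-26a, both were irradiated at 365 nm with 2 J/cm2, and both went through the same bead step. Biotin and thiouridine came together, so their parts cannot be told apart. The series design calls the 2 libraries of a group biological replicates and names no separate culture dates, so p-values measure the spread between these libraries.

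Immediate early genes are transcribed within minutes of a growth factor, stress or handling stimulus, without new protein synthesis, by factors such as SRF and its ELK partners that lie below the MAP kinases. Their mRNAs are short-lived, many through AU-rich elements in the 3′ UTR that proteins such as ZFP36 bind. Genes such as CDKN1A, MDM2 and SESN2 are transcribed by p53 after DNA damage, and several are also induced without p53 by metabolic or unfolded protein stress. Both programmes respond to ultraviolet light and to cell stress such as transfection. All 4 libraries shared irradiation and transfection, but the thiouridine duplexes were in the biotin libraries only. Whether the groups differed in such a response was not tested. The comparison sets RNA recovered with the tagged microRNA against the bead background with untagged microRNA. No input RNA is analysed here, so different recovery and different levels in the cells cannot be told apart, and neither can fewer cells of a type and less RNA per cell.

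The microRNA and the sites in the genes that the results turn on are shown first. The mature miR-26a (RefSeq, GRCh38.p14) has its seed, bases 2 to 8, in capitals, and bases 7 and 17, the thiouridine positions, are both U. The sites come from GENCODE 29 transcripts (GRCh38), were searched on the mRNA strand only, and are written as DNA. In DUSP5 the capitals mark the full seed complement TACTTGA. In FOS and MDM2 they mark ACTTGAA, which pairs with bases 2 to 7 and has an A opposite base 1. In the last pair, from FOS, they mark the heptamer TATTTAT, a core of AU-rich elements.
miR-26a: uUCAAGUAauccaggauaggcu
DUSP5, chr10:110511084-110511113, plus strand: attcttagtcaTACTTGAacttgtctcatt
FOS, chr14:75281569-75281598, plus strand: gggcctcaaggACTTGAAagcatccatgtg
MDM2, chr12:68840016-68840045, plus strand: actataatttgACTTGAAtatgtagctcat
FOS AU-rich, chr14:75282060-75282089, plus strand: tgtttttaattTATTTATtaagatggattc
FOS AU-rich, chr14:75282084-75282113, plus strand: ggattctcagaTATTTATatttttatttta

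A full seed complement lay in the 3′ UTR of 1 of 27 tested members, DUSP5 (3.70%), against 10.0% of 9216 tested genes with a 3′ UTR. UTRs were read in the GENCODE transcript, and only as far as the deposited transcript reached. GENCODE extends the 3′ UTR of MDM2 to 10837 nt, against 5695 nt within the deposited transcript, and holds 2 full sites in the extension. It holds 1 in the extension of IER5. The site ACTTGAA lay in 6 of 27 members (22.2%) against 14.9% of all, and the 6 bases ACTTGA, which both longer sites contain, in 9 of 27 (33.3%) against 30.5%. The heptamer TATTTAT lay in 13 of 27 members (48.1%) against 28.1%. Members had a median 3′ UTR of 957 nt, against 820.5 nt for all, and a median of 4 exons, against 9. Of the genes below whose change passed the test, SESN2 and GADD45A held none of these motifs in the stretch read. For GADD45A that stretch was 212 nt, from a GENCODE transcript of 902 nt. The deposited transcript has 1278 nt, so it was not covered in full.

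FPKM, fragments per kilobase of transcript relative to all mapped fragments, was summed over the transcripts of a gene. The libraries held an estimated 17560000 and 23640000 mapped reads in the biotin group, and 16030000 and 17830000 in the control group. On a transcript of 1 kb, 3 reads corresponded to 0.127 to 0.187 FPKM, which covers counting error only. Gene values correlated at Pearson r = 0.970 within the biotin group and 0.971 within the control group, against 0.876 to 0.883 between groups, across genes that are not independent replicates. Summed FPKM of 9 genes listed as markers of DU-145 was 305.4 and 351.7 in biotin libraries, against 328.0 and 460.8 in control libraries. The list includes the mesenchymal gene VIM, at 124 and 166 FPKM in biotin libraries, against 173 and 272 FPKM in control libraries. The epithelial keratin genes KRT8, KRT18 and KRT19 lay between 20.7 and 74.3 FPKM over the 4 libraries. The epithelial genes CDH1, EPCAM and ITGB4 lay between 1.70 and 2.97 FPKM, and KRT5 was at 0 in all 4 libraries. The prostate luminal genes KLK3 and KLK2, the fibroblast genes DCN and LUM, and the blood cell genes PTPRC, CD3E and HBB were at 0 in all 4 libraries. Of the 9 DU-145 markers 8 reached 1 FPKM, and CD44 rose, at 53.9 and 59.3 in biotin libraries, against 10.8 and 13.8 in control libraries. Summed FPKM of 5 luminal markers was 1.31 and 1.36, against 1.45 and 1.79, and that of 6 fibroblast markers 0.385 and 0.204, against 0.148 and 0.218. That of 6 blood markers was 2.66 and 1.30 in biotin libraries, against 0.675 and 0.372 in control libraries, nearly all of it CD14, which passed the test below (adjusted p = 0.0437, limma) and whose locus overlaps TMCO6. The part of other cells in the results was not tested.

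Of the 32 members, 27 reached 1 FPKM in at least 2 libraries and were tested, 3 rose, 1 fell and 23 did not pass (limma on log2(FPKM + 1), Benjamini-Hochberg adjusted p below 0.05 over 9940 genes). The stress sensor SESN2, the growth arrest gene GADD45A and the p53 antagonist MDM2 were higher in the biotin pull-out, and FOS was lower. These shares, 11.1% higher and 3.70% lower, stand against 13.1% and 9.32% of all tested genes, so calls were no more frequent among the members than in the whole table, where 22.5% passed in either direction. All-gene counts were 1307 higher and 926 lower, and 1224 and 1386 after upper-quartile scaling. Values of the groups did not overlap for 14 of the 27 members, 7 in each direction (25.9% each). Of all tested genes, 29.4% had both biotin values above both controls and 37.7% had both below, 67.1% in either direction. No member reached a 2-fold difference of FPKM + 1 between every biotin and every control library in either direction, against 5.08% and 1.21% of all genes. An exact two-sided permutation test of 2 against 2 libraries has a smallest p of 0.333. The calls therefore depend on the spread that limma estimates over all genes.

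**Figure D1:**
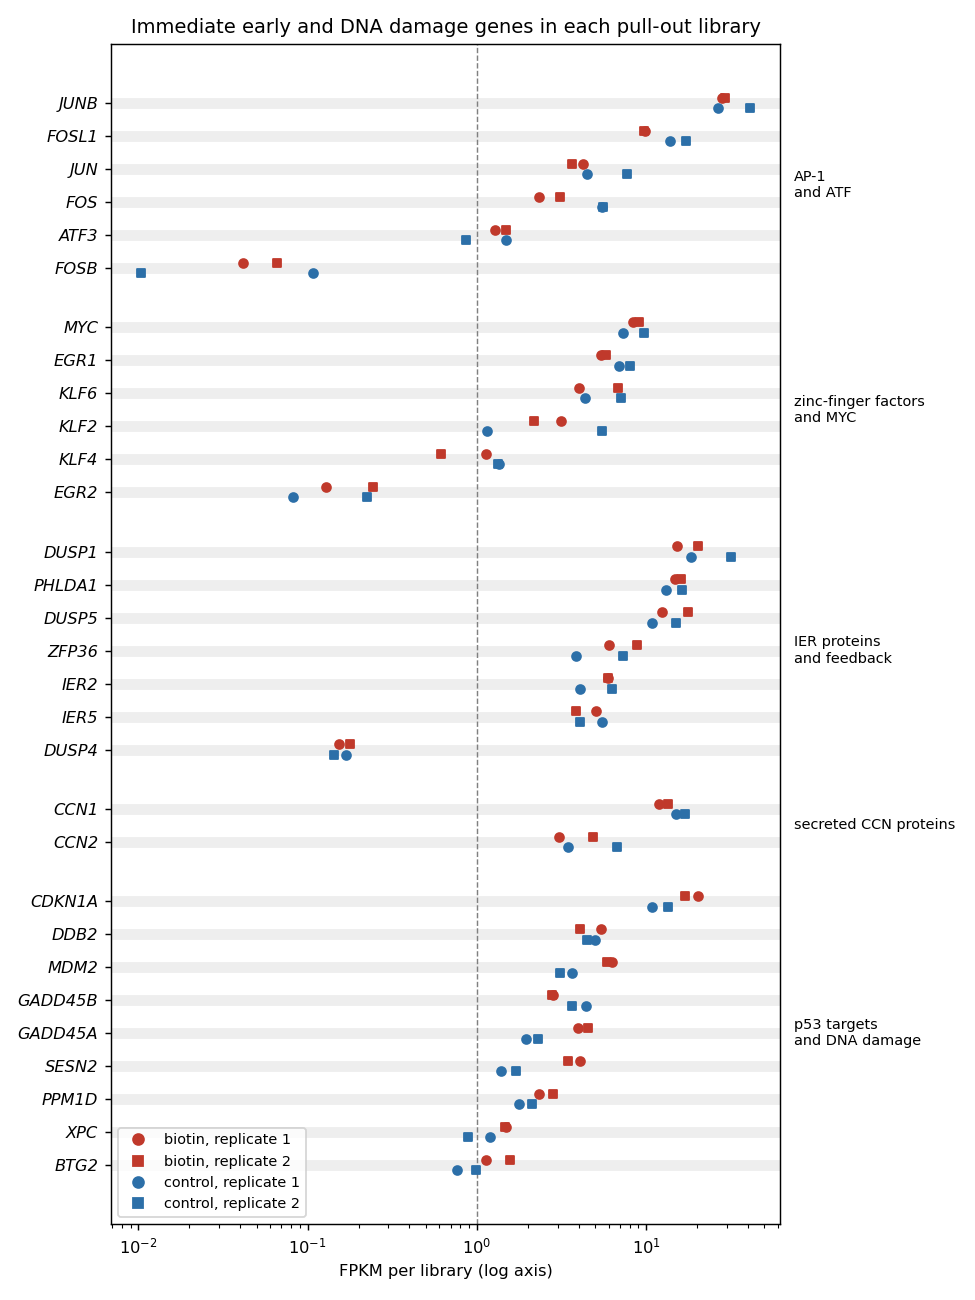
FPKM of the 30 members with a value above 0 in each library, on a log axis, by role; red points are biotin libraries, blue points control libraries, circles replicate 1 and squares replicate 2, and the dashed line is 1 FPKM. SESN2, GADD45A and MDM2 have both biotin points to the right of both control points, and FOS has both to the left.

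The p53 targets come first. SESN2 encodes sestrin 2, a leucine sensor upstream of mTORC1 that both p53 and ATF4 induce. It was at 4.07 and 3.43 FPKM in biotin libraries, against 1.39 and 1.70 FPKM in control libraries, which rested on an estimated 252 and 286 reads against 79 and 107. The groups did not overlap, and the mean was 3.75 ± 0.448 FPKM in biotin and 1.55 ± 0.222 FPKM in control libraries (SD, n = 2 each). The log2 fold change was 0.90 ± 0.15 (SE), with an adjusted p of 0.0123 (limma), and 91.0% of tested genes had a lower value. Its transcript lies at chr1:28259452-28282491 (hg38) and no other gene overlaps it in RefSeq.

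GADD45A encodes a small stress protein that binds PCNA and p21. It was at 3.96 and 4.56 FPKM in biotin libraries, against 1.95 and 2.30 FPKM in control libraries. Both biotin values were above both controls, with a log2 fold change of 0.75 ± 0.15 and an adjusted p of 0.0194 (limma). The gene lies at chr1:67685177-67688338. Its value was divided among 3 transcripts that share this locus, and the division differed between replicates more than between groups. NM_001924 held 3.39 and 0.419 FPKM in the biotin libraries, against 1.62 and 0 in the controls, while NM_001199741 held 0.577 and 3.45, against 0.338 and 1.59. The gene sum is the steadier quantity, and the call applies to it: the transcript with the highest mean changed by 0.51 ± 0.69, with an adjusted p of 0.697 (limma).

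MDM2 encodes the ubiquitin ligase that targets p53 for degradation and is itself a p53 target. Its values were 6.27 and 5.88 FPKM in biotin libraries, against 3.64 and 3.10 FPKM in control libraries. The groups did not overlap, the log2 fold change was 0.70 ± 0.15 and the adjusted p was 0.0240 (limma). All of its signal was listed under 1 of 5 transcripts, at chr12:68808172-68845544. The neighbouring gene CPM overlaps this interval. Use of strand in the counting is unknown here, so reads from the overlap could belong to either gene.

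CDKN1A, the cyclin-dependent kinase inhibitor p21, had the highest level of the p53 targets. It was at 20.3 and 17.0 FPKM in biotin libraries, against 10.9 and 13.5 FPKM in control libraries, an estimated 750 and 842 reads against 365 and 507. Its groups did not overlap either, but the log2 fold change of 0.58 ± 0.19 did not pass (limma, adjusted p = 0.0786). It passed after median-of-ratios scaling, at 0.65 with an adjusted p of 0.0472 (limma). In control replicate 2 a second of its 5 transcripts held 5.04 FPKM, which the sum includes, and in the other libraries 1 transcript held all. The noncoding gene DINOL overlaps its locus.

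Of the other 5 genes in this group, 3 also had both biotin values above both controls without passing. The p53 phosphatase gene PPM1D was at 2.32 and 2.83 FPKM in biotin libraries, against 1.77 and 2.12 FPKM in control libraries. The antiproliferative gene BTG2 was at 1.13 and 1.57 FPKM, against 0.759 and 0.990 FPKM. XPC, which recognises damage in nucleotide excision repair, was at 1.48 and 1.47 FPKM, against 1.20 and 0.885 FPKM, and XPC-AS1 overlaps it. Their log2 fold changes lay between 0.28 and 0.32, with adjusted p of 0.203 to 0.225 (limma).

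GADD45B had both biotin values below both controls, at 2.81 and 2.77 FPKM in biotin libraries, against 4.40 and 3.64 FPKM in control libraries. Its log2 fold change was -0.40 ± 0.15, which did not pass (limma, adjusted p = 0.0987). GADD45B is a relative of GADD45A induced early by TGF-beta and NF-kappaB. DDB2, the other damage-recognition gene, was at 5.42 and 4.08 FPKM, against 5.00 and 4.49 FPKM, with overlapping groups and a 95% interval of -0.42 to 0.41 on the log2 scale. In all, 7 of the 9 genes (77.8%) had both biotin values above both controls, against 29.4% of all tested genes, and 1 (11.1%) had both below, against 37.7%. Their median log2 fold change was 0.32, against -0.06 over all tested genes. At an unadjusted p below 0.05, 4 were up and 1 was down, where 19.5% and 19.8% of all tested genes were (limma). The 22 tested p53 pathway genes outside the set, described below, went the other way, with a median of -0.21. Of those, 22.7% had both biotin values above both controls and 50% had both below. The members were chosen with earlier results of these data known, so the shares of the 9 describe these names only.

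**Figure D2:**
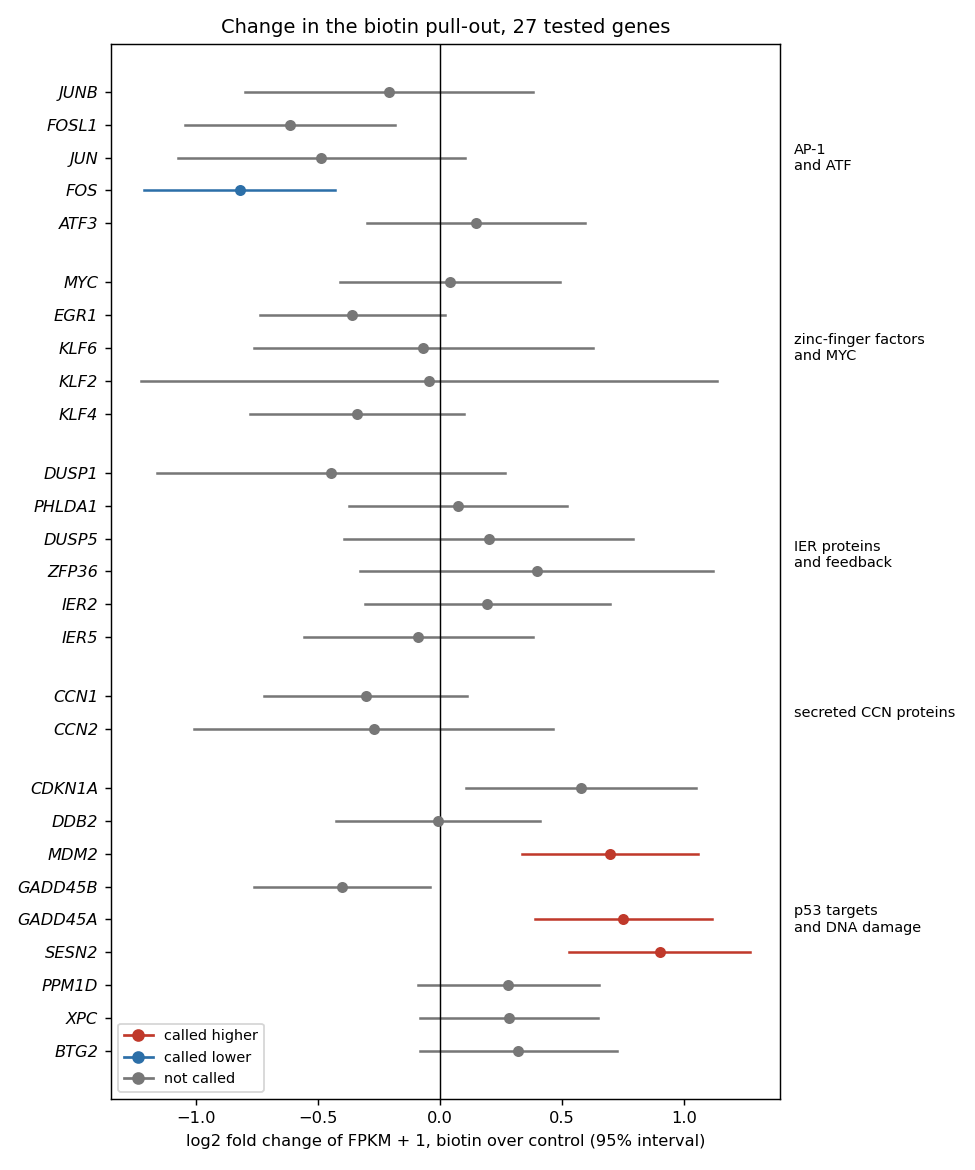
Log2 fold change of FPKM + 1, biotin over control, for the 27 tested members by role, with the 95% interval from limma; red marks genes called higher, blue the gene called lower and grey the 23 not called. The intervals of SESN2, GADD45A and MDM2 lie above 0 and that of FOS below it; CDKN1A, FOSL1 and GADD45B have intervals clear of 0 that did not pass after adjustment.

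The AP-1 genes encode the FOS and JUN partners of the dimeric factor AP-1, with ATF3 as a stress-induced relative. FOS, the archetype of the immediate early genes, was at 2.33 and 3.12 FPKM in biotin libraries, against 5.49 and 5.59 FPKM in control libraries. The control values lay close together and both biotin values were below them. The log2 fold change was -0.82 ± 0.16 with an adjusted p of 0.0190 (limma), and 4.84% of tested genes had a lower value. It rested on an estimated 88 and 158 reads in biotin libraries and 189 and 215 in control libraries, at chr14:75278778-75282234. Its ACTTGAA site and its AU-rich pair are among the sequences above, so FOS, which fell, and MDM2, which rose, both held that site.

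FOSL1, the FOS relative that is commonly abundant in carcinoma lines, was at 9.83 and 9.71 FPKM in biotin libraries, against 13.9 and 17.2 FPKM in control libraries. Its groups did not overlap, and the log2 fold change of -0.61 ± 0.18 missed the threshold (limma, adjusted p = 0.0539). JUN was at 4.23 and 3.67 FPKM, against 4.47 and 7.74 FPKM, so that control replicate 1 lay near the biotin values (log2 fold change -0.49 ± 0.24, limma adjusted p = 0.188, and -0.15 without control replicate 2). JUNB had the highest FPKM of all members, at 27.9 and 29.3 in biotin libraries, against 26.8 and 41.2 in control libraries. The groups overlapped, with a log2 fold change of -0.21 ± 0.24 that became 0.093 without control replicate 2. HOOK2 overlaps its locus. ATF3 was at 1.28 and 1.48 FPKM, against 1.48 and 0.863 FPKM, also overlapping. FOSB was not tested, at 0.0416 and 0.0664 FPKM in biotin libraries, against 0.108 and 0.0104 FPKM in control libraries, no more than 6 estimated reads in a library.

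Among the zinc-finger factors and MYC, 0 of 5 tested genes passed and 0 had an unadjusted p below 0.05 (limma). EGR1, the growth-factor-induced activator, was at 5.38 and 5.82 FPKM in biotin libraries, against 6.94 and 8.02 FPKM in control libraries. Both biotin values were below both controls, and the log2 fold change was -0.36 ± 0.16 (limma, adjusted p = 0.143). KLF4, a regulator of epithelial differentiation, was at 1.14 and 0.612 FPKM, against 1.36 and 1.34 FPKM (-0.34 ± 0.18, limma adjusted p = 0.212). The groups overlapped for KLF6, MYC and KLF2. KLF2, which laminar flow induces in endothelium, varied most between libraries, at 3.14 and 2.16 FPKM in biotin libraries, against 1.15 and 5.49 FPKM in control libraries. Its 95% interval ran from -1.22 to 1.13. MYC was at 8.35 and 9.11 FPKM, against 7.32 and 9.73 FPKM, with an interval of -0.41 to 0.49, which leaves room for a change of that size in either direction. EGR2 stayed at or below 0.243 FPKM in every library. EGR3 was listed at 0 in all 4, where 3 reads on its longest transcript would give at most 0.0432 FPKM.

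The IER proteins and feedback genes include phosphatases that inactivate MAP kinases (DUSP1, DUSP4, DUSP5), the mRNA decay factor ZFP36 and PHLDA1. Of these, 0 of 6 tested genes passed and 0 had an unadjusted p below 0.05 (limma), and the groups overlapped for all 6. DUSP1 was at 15.2 and 20.2 FPKM in biotin libraries, against 18.4 and 31.7 FPKM in control libraries (-0.44 ± 0.29, limma adjusted p = 0.304). That value was -0.82 without control replicate 1 and -0.068 without control replicate 2. DUSP5, the only tested member with a full seed complement, was at 12.3 and 17.7 FPKM, against 10.8 and 15.0 FPKM. Its log2 fold change of 0.20 had a 95% interval of -0.39 to 0.79, and its direction depended on the libraries kept. It was -0.043 without biotin replicate 2 and -0.016 without control replicate 1, against 0.44 without biotin replicate 1 and 0.42 without control replicate 2. ZFP36 was at 6.01 and 8.89 FPKM, against 3.85 and 7.27 FPKM (0.40 ± 0.30, limma adjusted p = 0.365), a value of 0.0098 without control replicate 1 and 0.78 without control replicate 2. PHLDA1, IER2 and IER5 had log2 fold changes between -0.09 and 0.19.

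DUSP4 was not tested, at 0.144 to 0.178 FPKM over the 4 libraries. IER3 was listed at 0 in every library. The tables hold it at 6 places, the primary copy on chromosome 6 and 5 copies on alternate contigs of that chromosome, each at 0. Of 769 protein-coding genes with rows both on the primary assembly and on an alternate contig, 74.3% were at 0 in all 4 libraries, against 23.6% of 18544 with rows on the primary assembly alone. IER3 is a gene with such copies, and its 0 is given as listed. The part of the alternate copies in it was not tested.

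The secreted matricellular proteins CCN1 and CCN2, targets of YAP and SRF, did not pass either (limma, 0 of 2, and 0 at an unadjusted p below 0.05). CCN1 was at 12 and 13.4 FPKM in biotin libraries, against 15.0 and 16.9 FPKM in control libraries, so both biotin values were below both controls (-0.30 ± 0.17, limma adjusted p = 0.236). CCN2 was at 3.08 and 4.84 FPKM, against 3.47 and 6.76 FPKM, with overlapping groups and a log2 fold change of -0.27 that was 0.13 without control replicate 2.

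Over the 18 tested immediate early genes, 0 rose and 1 fell (5.56%), against 13.1% and 9.32% of all tested genes. At an unadjusted p below 0.05 the counts were 0 and 2 (11.1%), against 19.5% and 19.8% (limma). None had both biotin values above both controls, against 29.4% of all tested genes, while 6 (33.3%) had both below, against 37.7%. Their median log2 fold change was -0.15, with 12 of 18 values negative, against a median of -0.06 over all tested genes. That median rested on control replicate 2: without that library it was 0.02, with 9 values negative, and without control replicate 1 it was -0.38. The median of the p53 and DNA damage genes was 0.29 to 0.45 with any 1 library left out.

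**Figure D3:**
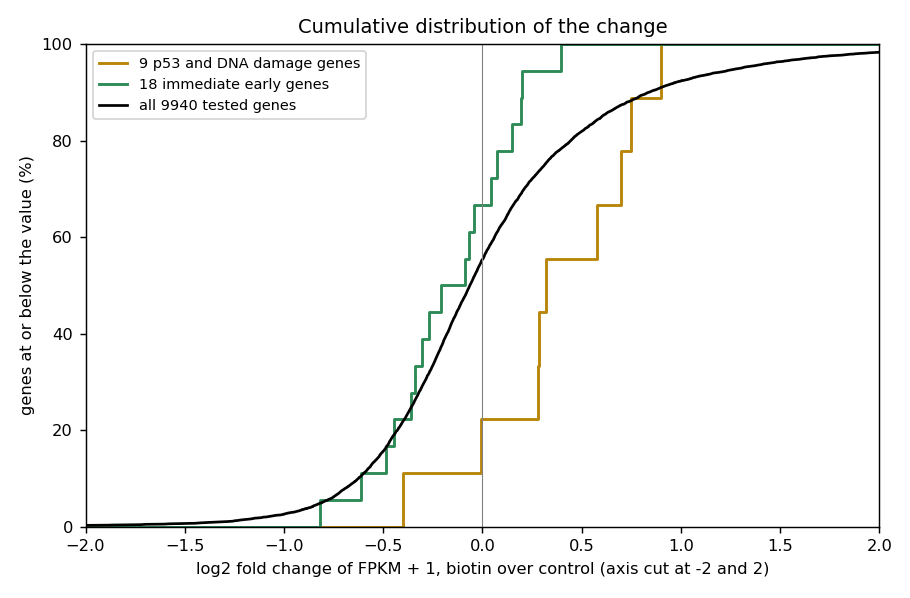
Cumulative share of genes by log2 fold change of FPKM + 1, biotin over control, for the 9 tested p53 and DNA damage genes (gold), the 18 tested immediate early genes (green) and all 9940 tested genes (black). The gold line lies to the right of the black one over most of its range, with a median of 0.32 against -0.06, and the green line lies on or to the left of the black one above a value of 0, ending at 0.40.

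The replicate libraries differed among immediate early genes. In biotin libraries, replicate 2 exceeded replicate 1 for 13 of the 18 (72.2%), against 48.4% of all tested genes. In control libraries it did so for 15 of the 18 (83.3%), against 62.2%. ZFP36, CCN2, DUSP1, DUSP5 and KLF6 had wide gaps in both groups, in the same direction. CCN2 differed by -0.52 in biotin and -0.79 in control libraries (replicate 1 minus replicate 2, log2 of FPKM + 1), and ZFP36 by -0.50 and -0.77. These gaps exceed the difference between the groups for both genes. Of the 9 p53 and DNA damage genes, 3 were higher in biotin replicate 2 and 5 in control replicate 2. What set the replicates apart was not tested.

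**Figure D4:**
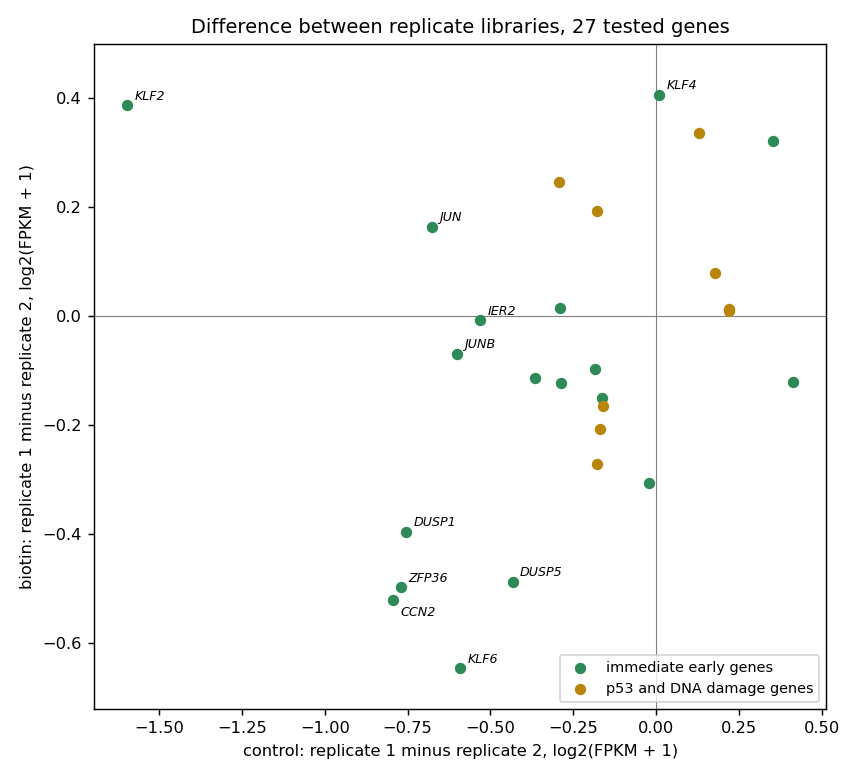
Difference between replicate 1 and replicate 2 in log2(FPKM + 1) for the 27 tested members, biotin libraries on the vertical axis and control libraries on the horizontal axis; green points are immediate early genes and gold points p53 and DNA damage genes, and the named genes have the widest gaps. Most immediate early genes lie at the lower left, where replicate 2 was higher in both groups, with KLF2 apart at -1.60 in the controls.

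The 4 calls were sensitive to the number of libraries. With any 1 library left out, the log2 fold change of SESN2 stayed between 0.80 and 1.00, of GADD45A between 0.67 and 0.83, of MDM2 between 0.61 and 0.79 and of FOS between -0.97 and -0.67. SESN2 and FOS passed without biotin replicate 2 (limma, adjusted p = 0.0472 and 0.0492) and not without biotin replicate 1, control replicate 1 or control replicate 2. GADD45A and MDM2 passed in none of the 4, with adjusted p of 0.0694 to 0.109 and 0.0844 to 0.117 (limma). Over all genes, the same fits called 190 to 680 genes higher and 32 to 223 lower, against 1307 and 926 with 4 libraries. With no filter on low values none of the 4 members passed, at adjusted p of 0.0582 to 0.0697 (limma), and none passed with single transcripts in place of gene sums, at 0.0892 for SESN2 to 0.697 for GADD45A. A pseudocount of 5 kept the 4 calls and gave log2 fold changes of 0.42 for SESN2, 0.38 for GADD45A, 0.40 for MDM2 and -0.45 for FOS.

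**Figure D5:**
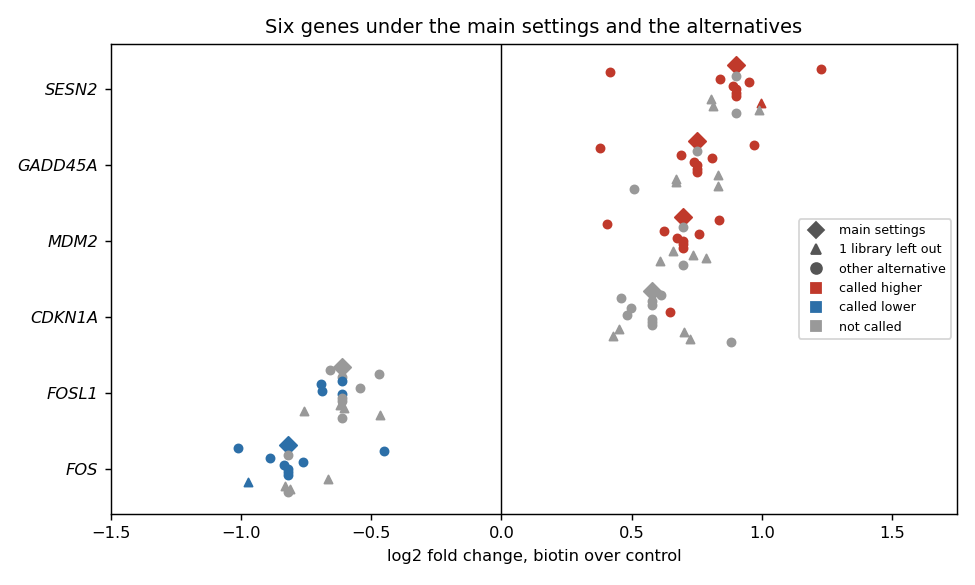
Log2 fold change of SESN2, GADD45A, MDM2, CDKN1A, FOSL1 and FOS, biotin over control, under the main settings (diamonds), with 1 library left out (triangles) and under the other alternatives (circles); red marks a call as higher, blue a call as lower and grey no call. All values of a gene lie on 1 side of 0, between 0.38 and 1.23 for the 4 upper genes, and most triangles are grey.

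Other genes of the same pathways were read from lists drawn up by pathway. Of 36 tested further immediate early genes, 8 rose (22.2%) and 2 fell (5.56%), against 13.1% and 9.32% of all tested genes. RHOB, a small GTPase gene induced by ultraviolet light, rose most, at 20.4 and 20.1 FPKM in biotin libraries, against 3.02 and 4.12 FPKM in control libraries, and it passed whichever library was omitted (2.23 ± 0.18, limma adjusted p = 0.00115). Next were the urokinase receptor gene PLAUR (1.28 ± 0.26), the small MAF genes MAFG (1.28 ± 0.18) and MAFK (1.05 ± 0.18), the anti-apoptotic gene MCL1 (0.98 ± 0.27) and the orphan receptor gene NR4A1 (0.96 ± 0.19). The inhibitor of differentiation gene ID2 (-0.99 ± 0.16) and the NF-kappaB inhibitor gene NFKBIA (-0.77 ± 0.21) fell. MCL1 and NFKBIA passed narrowly (limma, adjusted p = 0.0490 and 0.0488), and neither passed with any library left out or at a pseudocount of 0.1 or 5. MAFK and NR4A1 did not pass with any library left out either. The median of the list was -0.06, that of all tested genes.

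Of 34 tested genes upstream of immediate early transcription, 2 rose and 2 fell (5.88% each), against 13.1% and 9.32% of all tested genes. ELK1, the SRF partner that MAP kinases phosphorylate, was at 13.7 and 19.7 FPKM in biotin libraries, against 2.11 and 1.34 FPKM in control libraries, a log2 fold change of 2.69 ± 0.23 that passed whichever library was omitted. NRAS rose by 1.32 ± 0.18. The CREB relative ATF1 fell by 0.61 and the coactivator YAP1 by 0.56 on the log2 scale, and neither passed with any library left out (limma, adjusted p = 0.1003 to 0.162).

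Of 22 tested p53 pathway genes outside the set, 3 rose (13.6%) and 5 fell (22.7%), against 13.1% and 9.32% of all tested genes, with a median of -0.21. The ribonucleotide reductase gene RRM2B (1.27 ± 0.15) and the p53 inhibitor gene MDM4 (0.92 ± 0.17) were among the increases. CCNG1, cyclin G1, was at 9.38 and 11 FPKM in biotin libraries, against 23.7 and 26.2 FPKM in control libraries (-1.22 ± 0.18). RPS27L, TRIAP1, PMAIP1 and FAS fell by 1.07, 1.00, 0.56 and 0.54 on the log2 scale. PMAIP1 and FAS did not pass with any library left out.

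Of 25 tested genes of damage sensing and repair, 4 rose and 4 fell (16% each), against 13.1% and 9.32% of all tested genes. DDB1, the partner of DDB2 in damage recognition, was at 91.0 and 96.7 FPKM in biotin libraries, against 27.4 and 31.3 FPKM in control libraries (1.65 ± 0.19). The checkpoint kinase gene ATR (1.11 ± 0.17), the helicase gene ERCC2 (0.77 ± 0.15) and the nuclease gene MRE11 (0.53 ± 0.14) also rose. H2AX, the histone variant phosphorylated at breaks, fell by 1.26, XRCC6 by 1.01, NBN by 0.76 and ERCC8 by 0.65 on the log2 scale. ERCC2, MRE11, H2AX, NBN and ERCC8 did not pass with any library left out. Of the 30 genes called in these 4 lists, RHOB and ELK1 alone passed whichever library was omitted, and 15 failed each time. Other genes overlap the loci of several, among them ACTA2 at FAS, DPAGT1 at H2AX, KLC3 at ERCC2 and TMEM184A at MAFK.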

How the data were processed

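Per the labels' protocols, pull-out RNA went into TruSeq Stranded Total RNA libraries, read from 1 end over 50 bases. The tools were Cufflinks 2.1.1, Cuffdiff, TopHat2 2.0.9, cutadapt and FastQC 0.10.1, with build hg38, per the submitters' processing notes. Settings, annotation and any use of strand were not given in the sources used here. The authors deposited FPKM for 53209 transcript rows a library. Per the file headers the tables also hold coverage, used here for depth and estimated reads (coverage × length / 50), and transcript length in other columns.

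Of 46699 RefSeq accessions, 98.6% received a symbol from the RefSeq gene table or the RefSeq links of GENCODE 29. FPKM was summed per gene. The 22 genes with a failed or excess-data status and genes of short structured RNAs were left out. Genes with at least 1 FPKM in 2 libraries were compared, biotin against control, with limma 3.58.1 in R 4.3.3 (variance trend, pseudocount 1, two-sided, 2 residual and 4.2 prior degrees of freedom). The pseudocount understates fold changes of low genes. The procedure was tested on simulated data with independent noise in each library, which cannot show how many calls in the real libraries are wrong.

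Named genes were all members, those with a call, without overlap or among the 3 highest being given by library, and the called genes of 4 pathway lists, up to 6 a direction. Some genes of these lists are not reported here. MYADM and FOSL2 were the further increases of the first list. The members and lists were chosen with earlier results of these data known.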

Additional observations from a re-analysis of the deposited data

How the results depend on the processing

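With no low-value filter 0 members were called in limma (at an unadjusted p below 0.05, 4 up and 3 down), against 653 and 230 genes higher and lower in all. With single transcripts 0 members were called (3 up and 2 down unadjusted), against 336 and 142 genes. At a mean FPKM of at least 5, 0 members were called higher (1 unadjusted) and FOSL1 lower; the 4 called members lie below that mean and were not tested there. FOSL1 joined FOS, making 2 lower, with upper-quartile scaling, quantile normalization or no variance trend. With a library left out, 0 to 1 members were higher and 0 to 1 lower, and 190 to 680 and 32 to 223 genes in all, the lone library being assumed to vary like the other group. Of the 27 tested members, 11 changed sign with some library left out, none of them called. Their log2 fold changes then ran from -0.51 to 0.093 for JUNB, -0.060 to 0.35 for ATF3, -0.84 to 0.75 for KLF2, -0.39 to 0.25 for KLF6, -0.14 to 0.22 for MYC, -0.072 to 0.46 for IER2, -0.26 to 0.088 for IER5, -0.043 to 0.44 for DUSP5, -0.070 to 0.22 for PHLDA1, -0.67 to 0.13 for CCN2 and -0.18 to 0.16 for DDB2. Of these 11, 5 also changed sign otherwise: KLF2 to 0.036 at a pseudocount of 0.1 and 0.014 with median-of-ratios scaling, DDB2 to 0.054 with that scaling, KLF6 to 0.12 with single transcripts, MYC to -0.035 and -0.026 and PHLDA1 to -0.0061 and -0.0043 with upper-quartile scaling and quantile normalization. The replicate block kept 3 members higher and 1 lower, the same genes, with 1078 and 534 genes in all, and 6 pathway genes no longer passed (NFKBIA, YAP1, PMAIP1, FAS, MRE11 and H2AX, adjusted p 0.0547 to 0.0722). The labels give no pairing and there are 2 pairs. The replicate differences of the groups correlated at r = 0.00246 across all tested genes and 0.215 across the 27 members. The value for the members includes KLF2, whose differences had opposite signs, 0.39 in biotin and -1.60 in control libraries. The correlation without KLF2 was not computed. Of 390 values of the tested members under alternatives, 338 kept direction and side of the threshold, 22 lost a call, 5 gained one and 25 changed sign. Of 411 for pathway genes, 268 kept both and 143 lost the call. Apart from the filter, the causes were not tested. FOSB, EGR2 and DUSP4 stayed below the filter of 1 FPKM, with at most 25 estimated reads a library.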

Other observations

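Transcript features were set beside the change for all genes, as a description across genes that share libraries. The log2 fold change had a Spearman rho of 0.21 with transcript length over 9344 genes and of -0.29 with the AU content of the 3′ UTR over 9216. Over the 27 tested members the values were 0.18 and -0.19. FOS, which fell, has a 3′ UTR with 61.3% A and U, SESN2, which rose, one with 44.9%, and MDM2, which also rose, one with 62.3%. The part of composition or length in any member's change was not tested.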
